A study of Homo sapiens with 2 samples.

Results

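The genes of the 5 NF-κB subunits, NFKB1, NFKB2, REL, RELA and RELB, were examined for accessible chromatin in GM12878, an established human B lymphoblastoid line transformed with Epstein-Barr virus. Members were the accessible regions whose midpoint lay within 50 kb of the span of one of these genes in hg19, chosen by position alone. They were 23 of the 23612 regions of the deposited list. ATAC-seq, in which a transposase cuts and tags open DNA, had been run on 2 untreated cultures of 50000 cells each, all of 1 group. The authors deposited 1 list for both cultures, with a position, a width and a score for each region and no value per culture. Depth is therefore unknown, and no error between cultures can be given. The line is of 1 donor and was sampled in exponential growth, and its identity was not checked against B cell markers here.

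NF-κB factors are dimers of proteins that share a Rel homology domain, with which they bind DNA and each other. NFKB1 and NFKB2 encode precursors that are processed to DNA-binding subunits without an activation domain, while REL, RELA and RELB encode subunits with one. In the canonical pathway, loss of the inhibitor IκB frees dimers that hold RELA or REL, and in the non-canonical pathway processing of the NFKB2 precursor frees dimers with RELB. Both pathways are known to act in B cells transformed by Epstein-Barr virus, whose membrane protein LMP1 signals to them.

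Promoter sequences from RefSeq (GRCh38.p14) are shown first, since the data bear on the starts of all 5 genes and several genes of the family are known targets of NF-κB. The table gives 300 bases around each annotated start, 250 before and 50 after it, and held 8 windows for 4 of the 5 genes, with RELB not among them. Each window was searched on both strands for the NF-κB consensus and for a stricter form within it, GGGA and TTCC around 2 free bases. Capitals mark matches to the consensus, with matches on the 2 strands that overlap merged, and all sequences read 5′ to 3′ along the gene. The 250 bases before the first start of NFKB1 (chr4:102501109-102501358, plus strand) and of REL (chr2:60881324-60881573, plus strand) each hold 1 match.
NFKB1: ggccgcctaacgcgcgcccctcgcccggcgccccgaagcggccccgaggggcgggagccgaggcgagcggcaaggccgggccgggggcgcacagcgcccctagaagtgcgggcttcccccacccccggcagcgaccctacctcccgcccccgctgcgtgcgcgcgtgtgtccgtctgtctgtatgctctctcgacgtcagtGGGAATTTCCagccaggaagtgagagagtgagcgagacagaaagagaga
REL: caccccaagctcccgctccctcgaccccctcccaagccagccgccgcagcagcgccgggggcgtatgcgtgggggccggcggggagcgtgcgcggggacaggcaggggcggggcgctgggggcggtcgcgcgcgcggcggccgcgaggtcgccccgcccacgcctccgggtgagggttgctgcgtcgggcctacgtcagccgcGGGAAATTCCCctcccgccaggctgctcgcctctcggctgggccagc
The match in NFKB1 begins 49 bases before the start and that in REL 47 bases before it. In both, the match also fits the stricter form.

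NFKB2 has 3 annotated starts, and its matches lay in the windows of starts 2 and 3, which are 468 and 1595 bp downstream of the first. They are shown in 30-base stretches because the gene carries more matches than the others.
NFKB2, start 2, chr10:102394462-102394491: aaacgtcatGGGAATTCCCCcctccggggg
NFKB2, start 2, chr10:102394490-102394519: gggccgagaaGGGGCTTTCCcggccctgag
NFKB2, start 3, chr10:102395519-102395548: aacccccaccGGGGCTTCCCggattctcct
NFKB2, start 3, chr10:102395674-102395703: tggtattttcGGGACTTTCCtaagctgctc
The matches begin 107 and 78 bases before start 2, and 176 and 21 bases before start 3. The last of them also fits the stricter form.

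RELA differed from these genes in that neither of its 2 windows held the consensus. The window of its start 2, which is 941 bp downstream of the first, held a CCGGAA, the core bound by ETS factors, which begins 36 bases before the start and is written on the opposite strand. It is the single match to CCGGAA among the 8 windows, shown in capitals.
RELA, start 2, chr11:65662935-65662964, minus strand: ggcgcggccggaTTCCGGgcagtgacgcga
No match says only that these letters are not in the window.

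The consensus was thus held by 4 of 8 windows, against 11.3% of the 34943 promoter windows in the RefSeq table. It was held by 3 of the 4 genes, for which no share over all genes was computed. The stricter form was held by 3 of 8 windows, against 1.61% of all windows. The members' windows ranged in G and C from 51.3%, in the first window of RELA, to 79.0%, in that of REL, beside a median of 58.7% over all windows, and 7 of the 8 had at least 60%. Among the windows with at least 60% G and C, 4 of the 7 of these genes held the consensus, against 16.8% of all such windows, and 3 held the stricter form, against 1.65%. The GC box core GGGCGG was held by 7 of 8 windows, against 44.9% of all, and CCAAT by 2 of 8, against 34.6%. TATAAA was held by 0 of 8, against 11.6% of all windows, and CCGGAA by 1 of 8, against 17.2%. Within the windows of at least 60% G and C, GGGCGG was held by 6 of 7 against 78% of all such windows, so its share lay near the background there. In the same class CCAAT was held by 1 of 7 against 28.8%, TATAAA by 0 of 7 against 2.79% and CCGGAA by 1 of 7 against 25.3%. The windows of a gene lie close together, and these shares describe letters, not bound sites. Promoter windows are in another build than the accessible regions and were joined to them by gene name, so whether a given match lies inside a region was not determined.

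All 5 genes carried an accessible region over the first base of their span, where 0.682% of the bases of chromosomes 1 to 22 and X lie inside a region. Annotated starts are known to be far more often accessible than other bases, and the share among all genes was not computed, as no hg19 annotation was used. The 5 start regions ran in width from 611 to 2415 bp. The score, given by the authors, is a whole number from 541 to 1000 of unstated scale, and has the form of a measure of reproducibility between replicates.

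NFKB1, in 4q24 on the plus strand (chromosome 4, 103422486 to 103538459), had the widest start region. It spanned 2415 bp (103421362 to 103423776), from 1124 bp before the start to 1290 bp after it, and scored 1000. Regions of this width or more made up 1.30% of the list. NFKB2, in 10q24.32 on the plus strand (chromosome 10, 104154335 to 104162286), had a start region of 2056 bp (104153480 to 104155535) with a score of 1000, a width reached by 2.98% of the list. It ran from 855 bp before the start to 1200 bp after it. The start regions of the precursor genes were thus the widest pair of the 5.

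RELB, in 19q13.32 on the plus strand (chromosome 19, 45504707 to 45541456), had a start region of 1401 bp (45504338 to 45505738) at a score of 1000. Most of it lay inside the gene, with 369 bp before the start and 1031 bp after it. REL, in 2p16.1 on the plus strand (chromosome 2, 61108709 to 61155291), had one of 1223 bp (61107950 to 61109172), also at 1000. Here the larger part, 759 bp, lay before the start and 463 bp after it. Widths of at least 1401 and 1223 bp were found in 12.4% and 18.3% of the list. Regions at a score of 1000 are wider than the rest, and among them these shares were 20.2% and 29.3%. For the start regions of NFKB1 and NFKB2 the shares among regions at 1000 were 2.15% and 4.93%.

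RELA, in 11q13.1 on the minus strand (chromosome 11, 65421067 to 65430443), had the narrowest start region and the only one of the 5 below the highest score. It spanned 611 bp (65430211 to 65430821), from 378 bp before the start to 232 bp after it, and scored 585. Of the list, 5.38% had a score as low as this, and 66.6% of regions were at least as wide. The region was listed all the same, so the start of RELA was accessible by the authors' criterion, and its place near the lowest score is a rank within the list and not a level of accessibility.

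**Figure D1:**
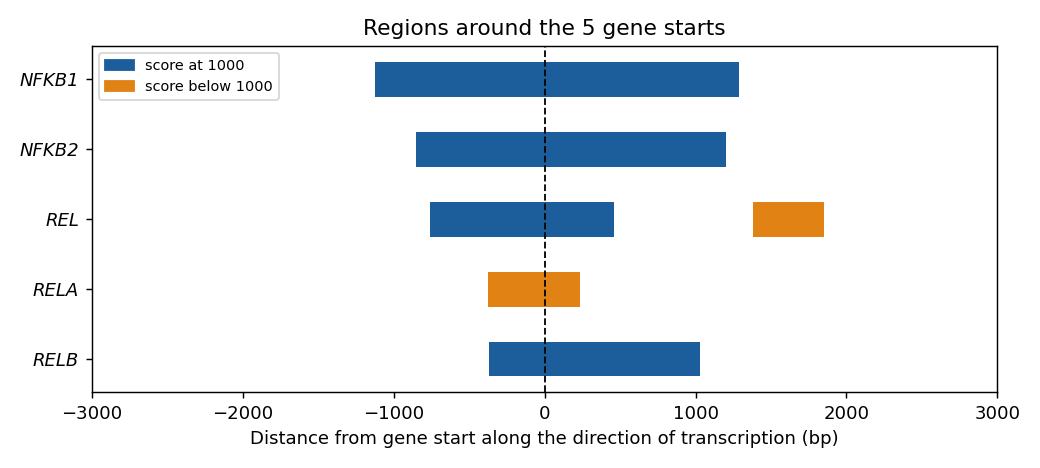
Extent of the accessible regions within 3000 bp of the 5 gene starts. The x axis is the distance in bp from the start along the direction of transcription, and the colour gives the score class. NFKB1 and NFKB2 have the widest start regions, RELA has the narrowest and the only one below a score of 1000, and REL has a second region inside the gene.

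The regions away from the starts were arranged differently at each gene. They were placed by distance alone, and none was assigned to a gene or to its neighbours. NFKB1 had 4 more regions, all inside its span of 116 kb, and none within 50 kb on either side. Their midpoints lay 41.98, 45.51, 63.36 and 85.21 kb after the start. The first pair was narrow, at 526 and 512 bp, with scores of 902 and 562, and was separated by 3006 bp. The other pair was wider, at 1039 and 1216 bp, and both regions scored 1000. The wide regions at the highest score thus lay further along the gene than the narrow ones, and the first 40.4 kb after the start region held none. Whether the sites are exonic or intronic was not determined. In the order of the GRCh38.p14 gene table the nearest protein-coding genes are SLC39A8, a zinc transporter gene, before NFKB1 and MANBA, which encodes a lysosomal mannosidase, after it.

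NFKB2 had 4 more regions, all downstream of its end and none inside its span of 7.95 kb or upstream of the start region. From the end of the gene their midpoints lay at 18.64, 30.16, 47.24 and 48.17 kb. In the same order they were 1078, 538, 432 and 740 bp wide and scored 959, 892, 591 and 902, so none was at the highest score. The last 2 were 345 bp apart, and 2.34% of the intervals between neighbouring regions on chromosomes 1 to 22 and X were as short or shorter. Upstream, the next region lay 147.6 kb before the start region, the longest interval between neighbouring regions that touched any of the 5 windows. Of the intervals on chromosomes 1 to 22 and X, 21.3% were at least that long. The nearest protein-coding genes in the gene table are GBF1, which encodes an exchange factor of the Golgi, upstream, and PSD, FBXL15 and CUEDC2 downstream. The regions downstream of NFKB2 were not assigned to any of them.

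REL had the most regions within 50 kb, 7, with 3 upstream, 1 at the start, 1 inside the gene and 2 downstream. Within 5 and 20 kb of its span it had 2 and 3, fewer than the 5 of NFKB1 in both, and at the highest score the 2 genes had 3 each. These windows differ in length, as the span of NFKB1 is 116 kb and that of REL 46.6 kb. A pair of 824 and 789 bp, both at a score of 1000, lay 41.98 and 40.57 kb before the start with 598 bp between them. Nearer to the gene, a region of 452 bp lay from 8.23 to 7.78 kb before the start and scored 547, among the 0.868% of the list with the lowest scores. A region of 472 bp with a score of 630 lay 1.61 kb after the start, 915 bp from the start region. Apart from these, the gene held no region, and an interval of 83.1 kb without regions covered 96.0% of its span. Past its end, regions of 333 and 839 bp lay at 38.49 and 44.30 kb with scores of 735 and 913. The narrower is one of the narrowest in the list, of which 99.2% was at least as wide. REL encodes c-Rel, a subunit that is abundant in lymphocytes. The nearest protein-coding genes in the table are PAPOLG, for a poly(A) polymerase, upstream and PUS10, for a pseudouridine synthase, downstream.

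RELA had 3 regions besides that at its start. A region of 1048 bp with a score of 904 lay just past the end of the gene, with its midpoint 0.72 kb beyond it. Another of 985 bp lay 38.06 kb beyond the end and scored 1000, and a region of 998 bp with a score of 946 lay 49.27 kb upstream. Each was wider than the start region and scored higher, an order seen at none of the other 4 genes, where the start region was the widest and at the highest score. The span of 9.38 kb held no region between those at its start and past its end. In the gene table KAT5, for a histone acetyltransferase, is the nearest protein-coding gene upstream and SIPA1, for a GTPase-activating protein of RAP, downstream. Whether the 3 regions besides the start region belong to RELA or to a neighbour was not determined.

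RELB had the fewest regions within 50 kb, 2, both at the highest score. Counting regions at the highest score only, NFKB2 and RELA had fewer, 1 each, and within 5 kb RELB and NFKB2 had 1 each. Besides the start region, a region of 1241 bp lay 46.27 kb upstream. No region was listed from the end of the start region to 90.1 kb further, an interval that covered 97.2% of the gene. Of the intervals between neighbouring regions on chromosomes 1 to 22 and X, 31.8% were at least that long, so such a stretch is common. CLPTM1 is the nearest protein-coding gene upstream and CLASRP, for a splicing regulator, downstream.

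**Figure D2:**
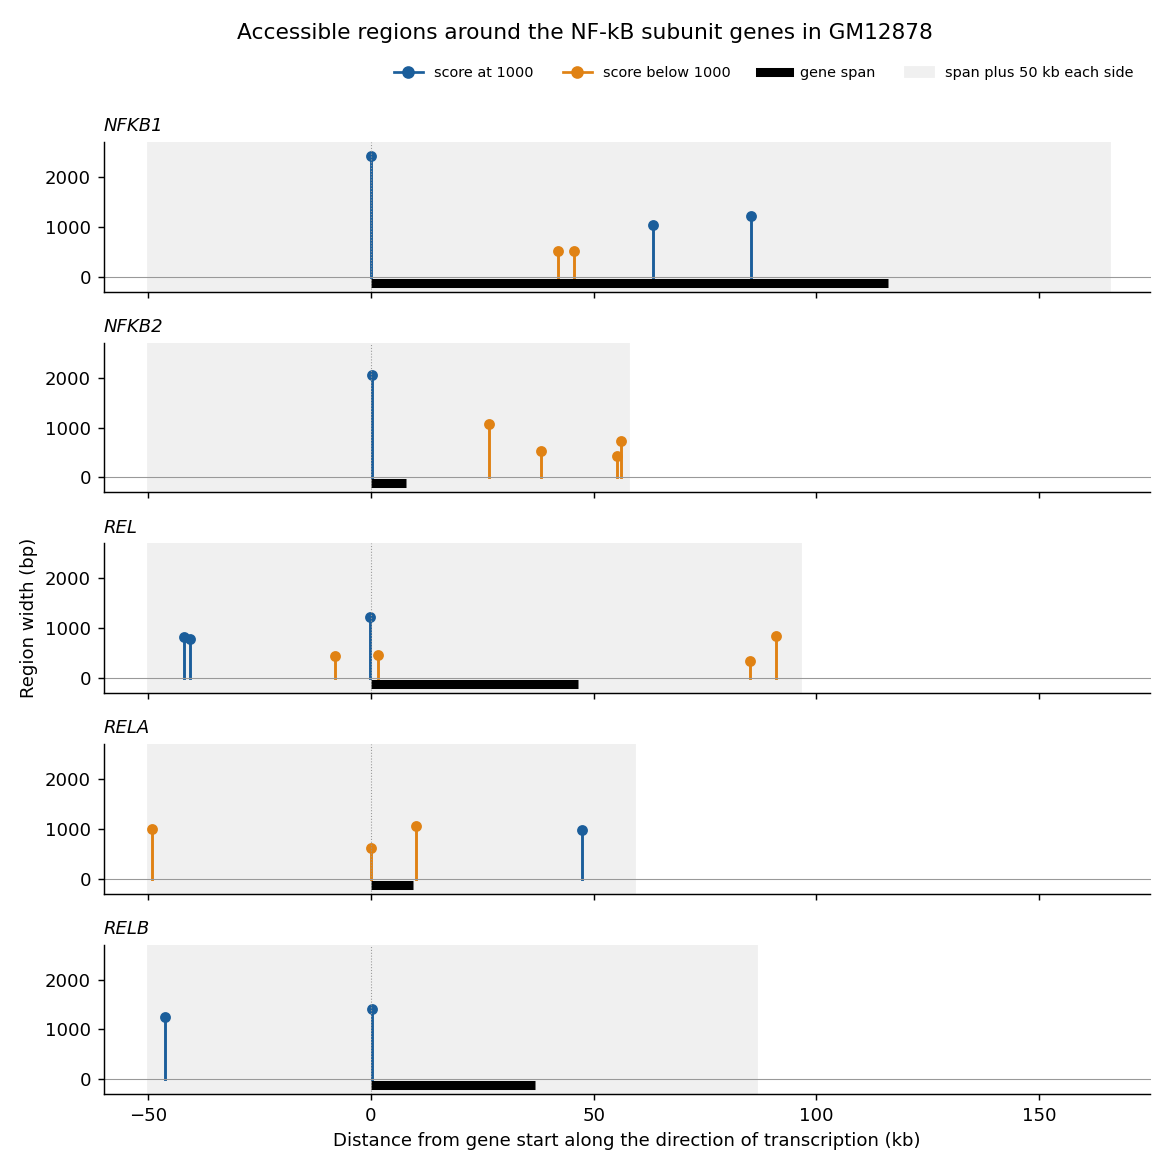
Accessible regions around each gene, drawn at their midpoints, with the distance from the gene start in kb along the direction of transcription on the x axis and the region width in bp on the y axis. Blue marks a score of 1000 and orange a lower score, the black bar is the gene span and grey the window of 50 kb on either side. NFKB1 has its 4 further regions inside the gene, NFKB2 downstream of it, and REL on both sides and inside the gene.

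The counts were read against tiles of chromosomes 1 to 22 and X that were as long as each gene's window. The window of REL, 147 kb long, held 7 regions, and 1.46% of tiles of that length held as many or more. For NFKB2, with 5 regions in 108 kb, the share was 2.56%, and for RELA, with 4 in 109 kb, 5.15%. NFKB1 held 5 regions in a window of 216 kb, a number that 10.4% of tiles reached. RELB held 2 in 137 kb, which 26.4% of tiles reached. Between 41.5% and 58.1% of tiles held no region, depending on the length. Together the 5 windows held 32.1 regions per Mb, against 7.72 over chromosomes 1 to 22 and X, and 3.04% of their bases lay inside a region. Tiles are not centred on genes and run over whole chromosomes, including gene-poor stretches, centromeres and unassembled sequence. Some can therefore hold no listed region, which lowers the shares of tiles and the 7.72 regions per Mb. The tiles show where the windows stand along the genome and not among genes.

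**Figure D3:**
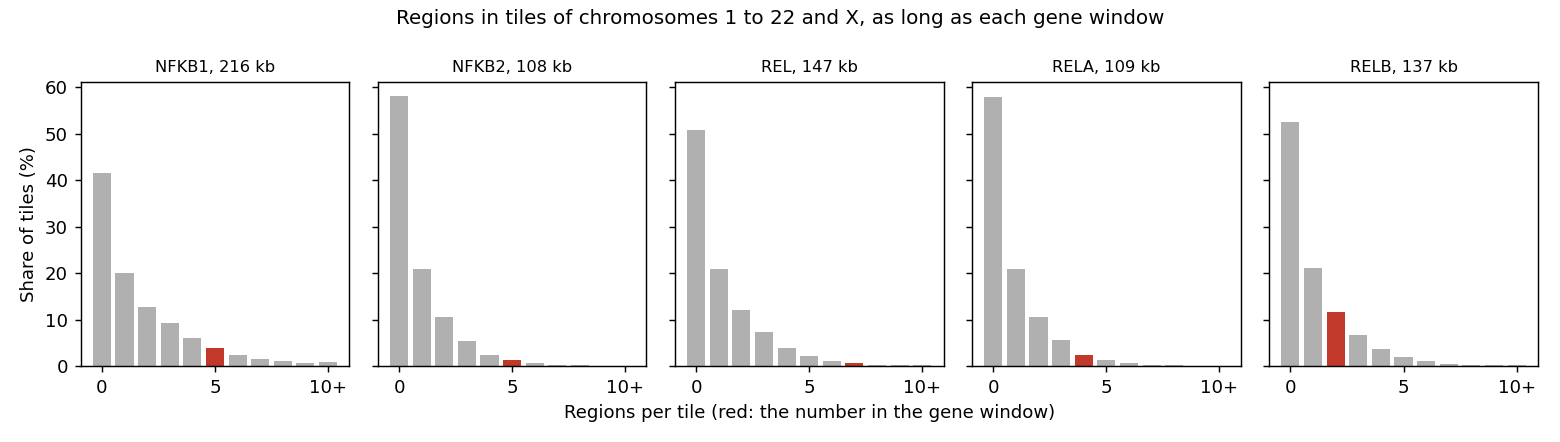
Share of tiles, in percent, by the number of accessible regions in a tile, for tiles as long as each gene's window, with tiles of 10 or more regions in the last bar. The red bar is the number found at the gene, which lies far to the right for REL with 7 regions and near the bulk of tiles for RELB with 2.

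Scores were read beside those of the whole list. Of the 23 regions 10, or 43.5%, had a score of 1000, against 60.1% of all regions. Split by place, the highest score was held by 4 of 5 regions at the starts, 3 of 5 upstream, 2 of 5 inside the genes and 1 of 8 downstream. At NFKB2, 0 of the 4 regions away from the start were at 1000, and at NFKB1 2 of 4. Regions at the starts had a median width of 1401 bp and the other 18 one of 806.5 bp, beside 756 bp in the whole list. Of the 23, 9 were wider than 1000 bp, or 39.1%, against 29.7% of the list. Of the 5 start regions, 4 were, and of the other 18, 5 were. No test was made, since regions of 1 list are not replicates.

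**Figure D4:**
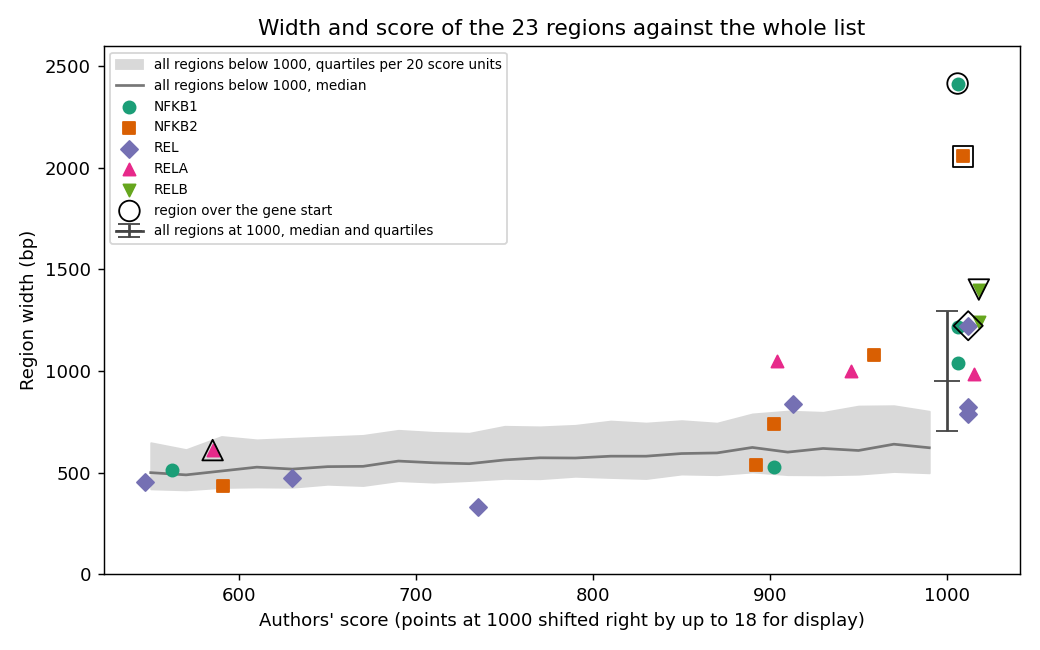
Width in bp of the 23 regions against the authors' score, with the median and quartiles of all listed regions. Larger open symbols mark the regions over a gene start, and points at 1000 are shifted to the right so that they can be told apart. The start regions of NFKB1 and NFKB2, at 2415 and 2056 bp, lie above the upper quartile of all regions at 1000, which is 1297 bp, and that of RELA lies among the lowest scores.

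The members closest to the limit of 50 kb lay 49.27 kb upstream of RELA and 48.17 kb past the end of NFKB2. Just outside, the nearest region lay 54.8 kb past the end of RELB, with a width of 834 bp and a score of 914, and the next 64.96 kb past the end of REL, with 585 bp and 989. The authors' region numbers ran without a skip through each of the 5 windows, and no region belonged to more than 1 window. Other genes of the pathway, such as those of the IκB proteins and the IκB kinases, were not analysed here, since their positions in hg19 were not used.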

How the data were processed

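The data are 1 BED list of accessible regions in hg19 for both GM12878 cultures. Per the submitters' processing notes, which give no roles, MACS2 2.1.0, BWA 0.7.13, bedtools 2.24.0, Trim Galore 0.3.3, SAMtools 0.1.19, CASAVA 1.8.4 and Picard 1.92 were used. The score deposited with each region has no stated scale, and was used only to rank regions within the list. A shift of reads for the transposase is not stated. Abbreviations in the list's name may stand for filters (mappability, mitochondria, blacklist) and, as idr, for a cut on reproducibility between replicates. No label explains them. Under such a cut, less reproducible regions would be missing from the list as well. A removed region cannot be told from closed chromatin.

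Regions were assigned by midpoint to the 5 gene spans plus 50 kb, with the bands and chromosome lengths of hg19 from circlize 0.4.16. Tiles are consecutive and do not overlap. Promoters came from RefSeq (GRCh38.p14), where 4 of 5 genes matched. The gene table gave names and order only. Counting was checked on simulated data. The text describes every member region and names each gene's nearest protein-coding neighbours from the gene table. Python 3.11.15, numpy 2.4.6, pandas 2.3.3, scipy 1.17.1 and matplotlib 3.10.9 were used. No test was made, since no value per culture was available. The 5 genes and the motifs were chosen with earlier results of these data known, and the regions then followed from the genes by position.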

Additional observations from a re-analysis of the deposited data

How the results depend on the processing

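Of 28 alternatives to the main values, 14 left them the same, 14 moved them and 0 reversed them, and all had been planned. Counts were called the same within 1.5-fold. That limit was not used for the shares of tiles, which were all called moved, even for RELA from 5.15% to 5.84%. The tally is therefore not one measure of stability. The 23 regions became 11 with a window of 5 kb, 13 with 20 kb and 10 with regions at the highest score only, by the construction of these settings. With 100 kb there were 32. All 5 genes kept a region within 1 kb of the start and 1 with its midpoint within 500 bp of it, and 4 had 1 over the start at the highest score, RELA being the exception. The median width was 1220 bp with regions at the highest score only. Among tiles of the gene's own chromosome, the share with as many regions was 12.7% for NFKB1, 3.35% for NFKB2, 2.53% for REL, 5.84% for RELA and 32.2% for RELB. Among tiles with at least 1 region it was 17.8%, 6.13%, 2.98%, 12.2% and 55.6% in the same order. In all 3 sets of tiles, which all use the window of 50 kb, the share was smallest for REL and largest for RELB. For the counts of single genes, 12 of 25 alternatives left them the same and 13 moved them, and the order of the genes depended on the window. NFKB1, NFKB2, REL, RELA and RELB had 5, 1, 2, 2 and 1 regions with 5 kb, 5, 2, 3, 2 and 1 with 20 kb, 7, 6, 9, 7 and 3 with 100 kb, and 3, 1, 3, 1 and 2 at the highest score only. The genes with an NF-κB motif numbered 3 by the consensus and 3 by its stricter form. No paired analysis was possible because both cultures share 1 list without values of their own, and for the same reason none could be left out. The share in GC-rich promoter windows was chosen after seeing the data. Depth is unknown, so a stretch without regions cannot be called closed.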
